A study of Mus musculus with 8 samples.

Results

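The comparison described here sets liver 240 min after a growth hormone (GH) injection against untreated liver, gene by gene, first over the gene body and then over the introns. Every gene of the table was taken, 24197 of 24197, and none was chosen by its values. Of these, 11053 genes reached 1 FPKM (fragments scaled to feature length and library depth) over the gene body in the higher of the 2 groups, and 10084 of them also reached 0.01 intronic FPKM there. Genes were then separated into those called on both measures and those called on 1 only, where a call is an adjusted p below 0.05 in the authors' deposited table.

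Both groups were hypophysectomized male CD-1 mice, an outbred stock, operated on at 7 weeks by the supplier and 11 weeks old when livers were taken. The GH group had received 125 ng recombinant rat GH per g body weight, once and intraperitoneally, 240 min earlier. The control group is called untreated in the study's design text and vehicle in the treatment protocol, so an effect of the injection cannot be told apart from that of GH if no vehicle was given. Each group was 2 RNA pools, each from 4 mice by the table's legend, out of 8 pools and 4 groups in the whole series. Loss of the pituitary takes its other hormones away as well, in both groups. Only group means of FPKM, ratios and adjusted p were given by the authors, with no value of a single pool, so neither the spread between pools nor their overlap can be shown for any gene.

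GH reaches the hepatocyte through its receptor, which activates the kinase JAK2 and the transcription factor STAT5, and STAT5 in turn drives genes such as Igf1, the main circulating growth factor of the axis, and the SOCS family of feedback inhibitors. Reads within introns come largely from RNA that is not yet spliced, so they follow recent transcription more closely than exonic reads, which are dominated by mature mRNA. A transcript made before the injection can thus still fill the gene body value while its introns have already gone.

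All 10 hepatocyte markers were measured, with albumin (Alb) at 27957 gene body FPKM 240 min after GH and 40641 in untreated livers, while of 6 acinar pancreas markers Prss2, Cpa1, Pnlip and Amy2a5 were listed at 0 in both groups. The other two were Cela1, at 6.28 FPKM at 240 min and 6.30 untreated, and Cela2a, at 0.363 FPKM at 240 min and 0.556 untreated. Library totals, recovered from the single-read steps of low values in genes with 1 exon, were about 5940000 and 14150000 reads for the 2 pools at 240 min and 7440000 and 10520000 for the untreated pools. Introns were read thinly: the median gene measured on both had about 52.3 intronic reads at 240 min and 33.6 in untreated livers, both pools together. A gene body call with no intronic call therefore does not show that the introns did not change. In bulk liver, fewer cells of a type and less RNA per cell cannot be told apart.

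The ratios of the 2 measures were scaled separately by the authors. Among genes well above 0, the quotient of the intronic mean FPKM exceeded the ratio of the authors' deposited table by a median of 0.39 (log2), or 1.31-fold, against 0.05 over the gene body. All folds and log2 ratios given here are those of the authors' deposited table, in which the median gene stood at 0.05 for introns and 0.03 for gene bodies. FPKM means given beside an intronic fold therefore imply a somewhat higher value at 240 min than the fold does.

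At 240 min after GH, far more genes had risen than fallen in mature RNA, whereas intronic calls were nearly balanced. Over the gene body, 1579 of 11053 measured genes were higher (14.3%) and 949 were lower (8.59%) in the authors' deposited table. Over introns, 543 of 10084 were higher (5.38%) and 598 were lower (5.93%). Both measures rose for 378 genes (3.75%) and both fell for 303 (3%). Opposite calls were found for 6 genes (0.0595%). The gene body alone was higher for 1127 (11.2%) and lower for 592 (5.87%), and introns alone were higher for 164 (1.63%) and lower for 290 (2.88%).

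**Figure D1:**
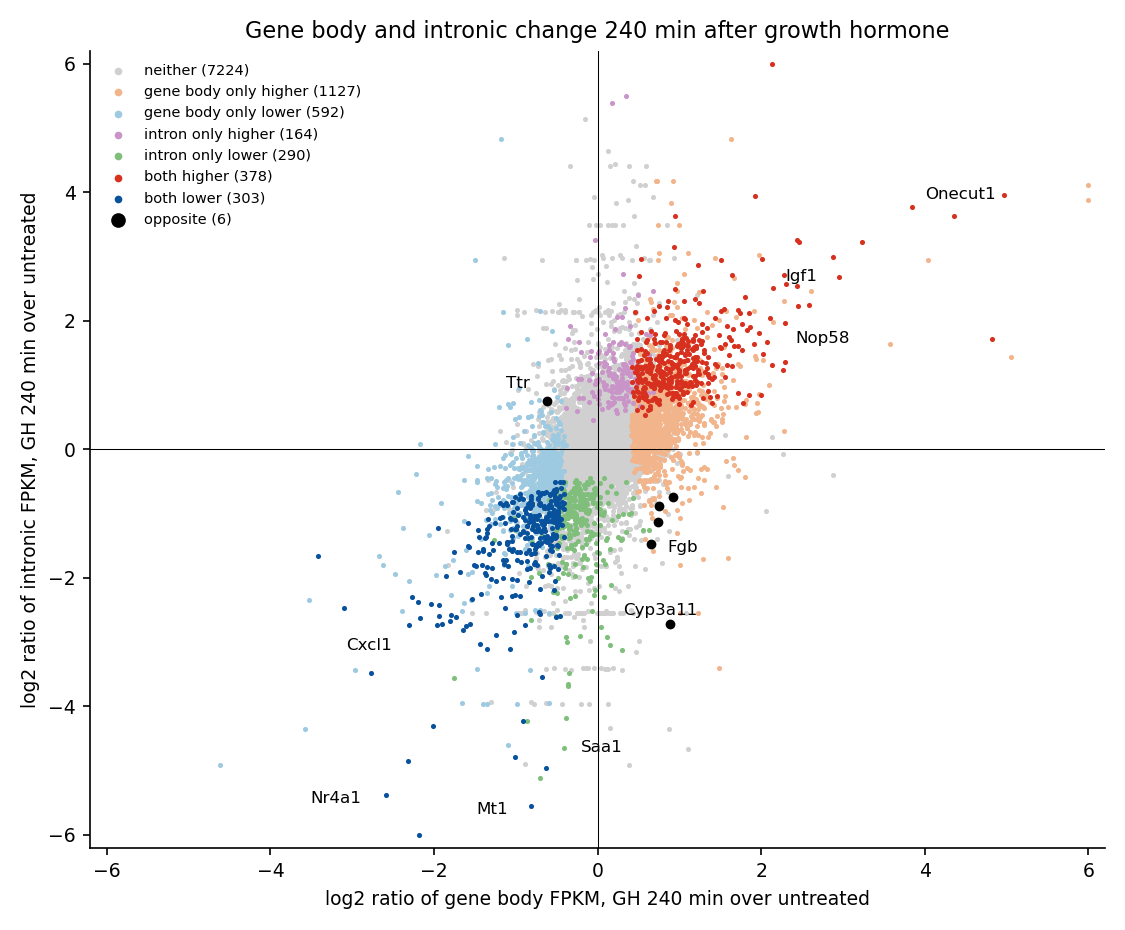
Each point is a gene measured on both readouts, with the log2 ratio of gene body FPKM (GH 240 min over untreated) on the horizontal axis and that of intronic FPKM on the vertical axis, coloured by the calls in the authors' deposited table, and values beyond 6 drawn at the edge. The 378 genes called higher on both lie upper right, the 303 called lower on both lower left, and of the 6 black points with opposite calls 5 lie lower right and Ttr upper left.

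Where both measures were called, the intronic change was usually the larger. The median gene of the matching class that rose had a log2 ratio of 0.95 over the gene body and 1.29 over introns in the authors' deposited table, and 297 of 378 moved more in introns. The class that fell had medians of -0.79 and -1.27, and 265 of 303 moved more in introns. Over all genes measured on both, 6349 of 10084 had the larger log2 ratio in introns, so part of this share is common to all genes. These classes also require an intronic call, and intronic calls were mostly large. Of the higher calls, 406 of 543 over introns were at least 2-fold, against 424 of 1579 over the gene body. For lower calls these were 379 of 598 and 249 of 949. The larger intronic change is therefore partly set by which genes could be called. Across these 10084 genes Spearman's rho between the measures was 0.57, and 0.68 over the 4459 genes with about 50 or more intronic reads in either group. These are descriptions across genes of the same 4 libraries.

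Classes called on the gene body alone were mixed. Of the 1127 genes higher over the gene body alone, 573 had an intronic log2 ratio of at least 0.5 in the same direction, 515 lay within 0.5 of 0 and 39 were at least 0.5 the other way. Of the 592 lower over the gene body alone, 270 leaned the same way by 0.5 or more, 296 lay within 0.5 and 26 the other way. Intronic depth moved with these classes: the untreated median was about 42.1 intronic reads for genes higher on both and 25.0 for genes higher over the gene body alone, and 167 for genes lower on both against 37.2 for genes lower over the gene body alone. Of all genes called over the gene body, 28.3% were also called over introns in the same direction, and the share was 39.8% among genes with about 50 or more intronic reads in a group and 49.0% with 100 or more. In the classes called on introns alone, the gene body lay within 0.5 for 150 of 164 higher and 265 of 290 lower genes.

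Direct targets of the GH receptor pathway were among the strongest matching increases. Igf1 (mm9 chr10:87323855-87378515) averaged 72.2 gene body FPKM at 240 min and 12.8 in untreated livers, 5.45-fold higher in the authors' deposited table with an adjusted p of 6.06e-56. Its introns averaged 0.390 FPKM at 240 min and 0.0638 untreated, 4.70-fold higher in the authors' deposited table (adjusted p = 7.51e-13). Igfals, the protein that holds IGF1 in its large serum complex, rose 3.60-fold over the gene body and 4.36-fold over introns in the authors' deposited table. Cish, a feedback inhibitor of STAT5, rose 7.74-fold over the gene body, at 14.2 FPKM against 1.79 FPKM untreated, and 6.43-fold over introns in the authors' deposited table. Socs2, which limits GH receptor signalling, rose 28.3-fold over the gene body but 3.29-fold over introns in the authors' deposited table. All 4 were called higher on both measures, and Socs2 had the widest gap between its folds. Their lists did not rise as a whole. Of 10 measured IGF axis genes 2 were higher and 3 lower over the gene body, and of 8 SOCS family genes 3 and 1. All genes had 14.3% and 8.59%. Over introns 2 of 8 and 2 of 7 were higher, beside 5.38% of all genes, and 2 and 1 were lower, beside 5.93%. At an adjusted p below 0.01, 1 SOCS family gene remained higher over introns.

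The start of Cish is shown because it carries a pair of matches to TTCNNNGAA, the palindrome that STAT factors are known to bind, in capitals (RefSeq, GRCm38.p6, bases 250 before to 50 after the start). This motif, searched on both strands, was found in 8.47% of the 27025 promoters of that length, in 7.04% of those of genes measured on both readouts and in 9.09% of those higher on both. Igfals held 1 match and Igf1 none, and Socs3, which fell, also held 1.
Cish, chr9:107296409-107296708, plus strand: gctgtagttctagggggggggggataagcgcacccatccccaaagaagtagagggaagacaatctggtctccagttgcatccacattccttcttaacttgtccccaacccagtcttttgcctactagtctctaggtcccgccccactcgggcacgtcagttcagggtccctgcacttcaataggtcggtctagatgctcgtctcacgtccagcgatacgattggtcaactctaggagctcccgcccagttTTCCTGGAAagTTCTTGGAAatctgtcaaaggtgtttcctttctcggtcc

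The receptor side of the pathway moved less. Ghr, the GH receptor itself, rose 1.56-fold over the gene body and 1.54-fold over introns in the authors' deposited table, and Prlr, the related prolactin receptor, rose 2.08-fold and 3.35-fold. Stat5b fell 1.55-fold over the gene body and 2.17-fold over introns in the authors' deposited table. Stat3, which carries signals of the interleukin 6 family, was called over introns alone, 2.06-fold lower with an adjusted p of 9.8e-06 in the authors' deposited table. Of 16 measured members of the receptor signalling list, 4 were higher and 1 lower over the gene body, where all genes had 14.3% and 8.59%, and 2 were higher and 3 lower over introns, where all genes had 5.38% and 5.93%. Counts this small are not read as a trait of the list.

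Several liver transcription factors moved strongly. Onecut1 (HNF6) averaged 30.0 gene body FPKM at 240 min and 2.05 untreated, 14.4-fold higher, and its introns were 13.6-fold higher in the authors' deposited table. Bcl6, a repressor that competes for STAT5 sites, averaged 0.837 FPKM at 240 min and 7.55 untreated, 10.7-fold lower over the gene body and 3.15-fold lower over introns in the authors' deposited table. Nr1i3, the xenobiotic receptor CAR, fell 2.46-fold over the gene body and 3.58-fold over introns in the authors' deposited table. Of 30 measured factors 9 rose and 7 fell over the gene body, beside 14.3% and 8.59% of all genes, and 5 of 25 rose and 2 fell over introns, beside 5.38% and 5.93%; the 2 lower over introns are near the share of all genes. The largest matching increases also held Nrep, 31.3-fold higher over the gene body and 15.6-fold over introns in the authors' deposited table, together with Keg1, Cwc22, Ddc, Acsl4 and Zfp872.

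**Figure D2:**
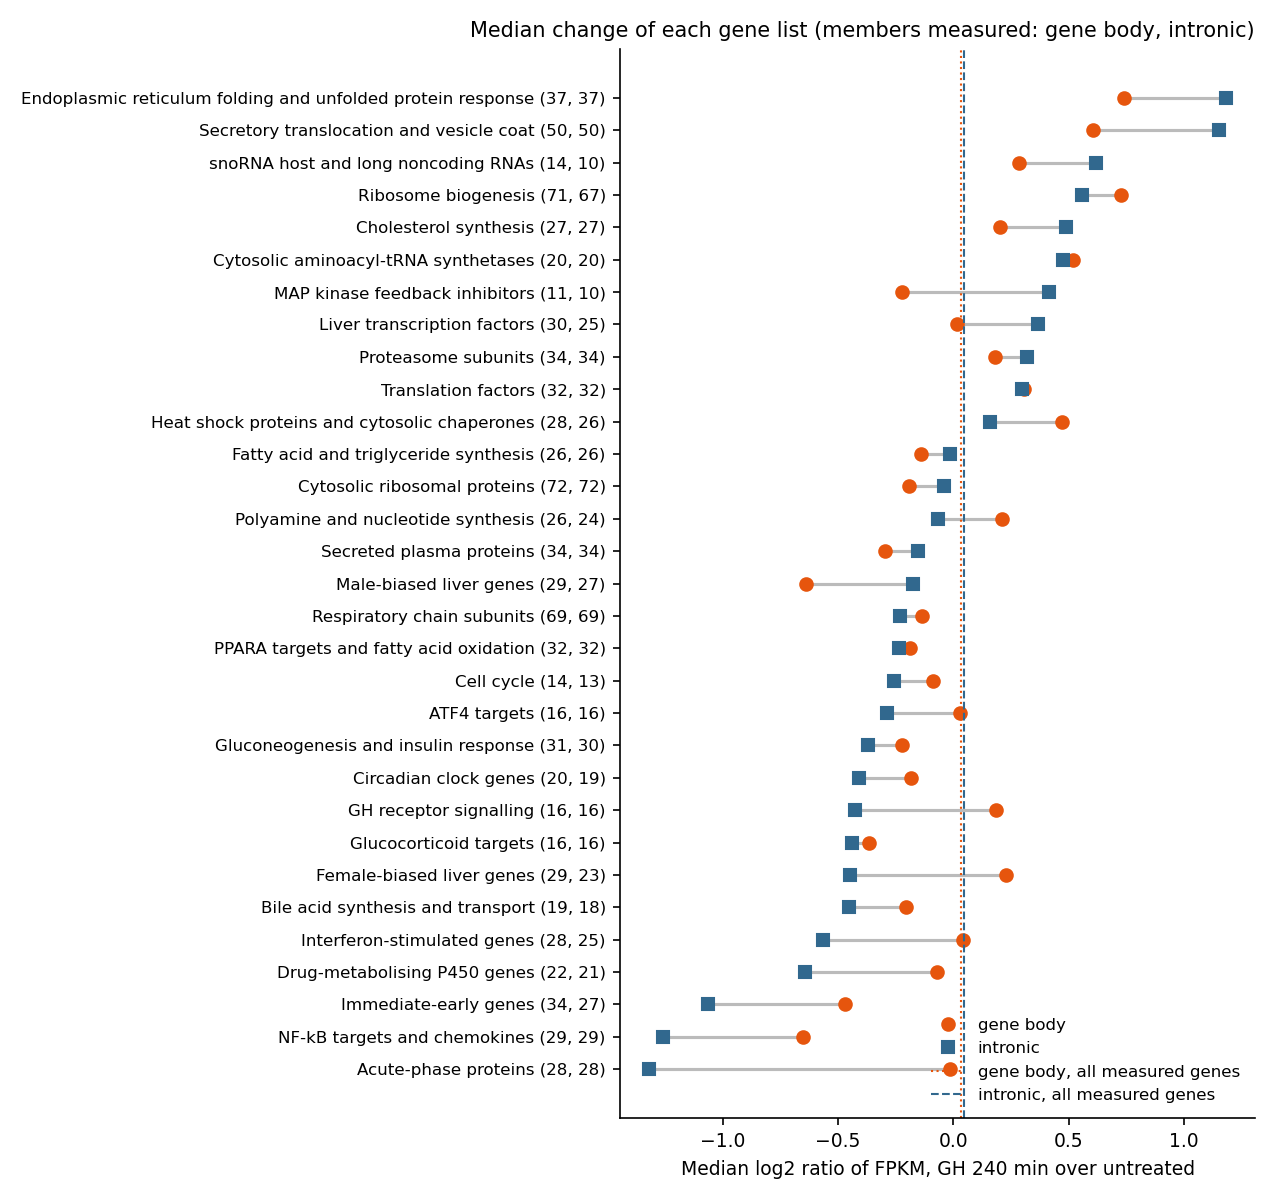
Median log2 ratio (GH 240 min over untreated) of each gene list with 10 or more members measured over introns, with circles for the gene body and squares for introns, sorted by the intronic median, and vertical lines for all measured genes at 0.03 and 0.05. Acute-phase proteins stand lowest at -1.32 over introns and -0.02 over the gene body, and endoplasmic reticulum folding genes highest at 1.18 over introns.

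Most genes of the secretory machinery rose, many on both measures. Of 37 measured genes of endoplasmic reticulum folding and the unfolded protein response, 30 were higher and 0 lower over the gene body, and 21 were higher and 0 lower over introns in the authors' deposited table, beside 14.3% and 5.38% of all measured genes called higher. Both measures were called for 18. The median log2 ratio was 0.74 over the gene body and 1.18 over introns in the authors' deposited table, and all 37 lay above 0 over introns. Of 50 measured genes of translocation into the endoplasmic reticulum and of vesicle coats, 36 were higher over the gene body, 34 over introns and 29 on both, with 0 lower on either measure.

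Hspa5 (BiP, mm9 chr2:34627609-34632049), the main chaperone of the endoplasmic reticulum, averaged 522 gene body FPKM at 240 min and 215 untreated, 2.33-fold higher in the authors' deposited table with an adjusted p of 1.67e-15. Its introns averaged 5.54 FPKM at 240 min and 1.91 untreated, 2.27-fold higher in the authors' deposited table (adjusted p = 0.000418). Creld2, an inducible folding factor, rose 3.27-fold over the gene body and 4.49-fold over introns in the authors' deposited table. Calr, the lectin chaperone calreticulin, and Pdia6, a disulfide isomerase, rose 1.41-fold and 1.45-fold over the gene body but 2.07-fold and 2.41-fold over introns in the authors' deposited table. Creld2, Calr and Pdia6 thus had the larger fold over introns, and Hspa5 nearly equal folds.

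Among the translocation genes, Srprb, a subunit of the signal recognition particle receptor, rose 2.84-fold over the gene body and 7.73-fold over introns in the authors' deposited table. Sec61a1, the channel itself, rose 1.77-fold and 3.52-fold, and Ssr3, a subunit of the complex beside the channel, rose 1.92-fold and 5.66-fold in the authors' deposited table. P4hb, an abundant disulfide isomerase, was called over introns alone: its gene body averaged 493 FPKM at 240 min and 457 untreated, and its introns were 2.29-fold higher in the authors' deposited table (adjusted p = 1.09e-05). Xbp1, a transcription factor of the unfolded protein response whose own mRNA is cut unconventionally, was the reverse: its gene body rose 2.43-fold, while its introns averaged 12.2 FPKM at 240 min and 8.27 untreated, with an adjusted p of 1.00 in the authors' deposited table.

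Promoters of 3 genes that rose on both measures are shown because they carry the endoplasmic reticulum stress element, CCAAT followed after 9 bases by CCACG, in capitals and on either strand (RefSeq, GRCm38.p6). The element was found in 0.130% of the 27025 promoters, and in 9 of the 28 listed folding genes that had a promoter in the RefSeq table. Of the 14 genes with it among those measured on both, 8 rose on both measures (Acacb, Alg12, Calr, Creld2, Dnajc3, Hspa5, Pdia6 and Syvn1), 2 rose over the gene body alone and 4 were not called. Several of these chaperones are textbook carriers of the element.
Hspa5, chr2:34771840-34772139, plus strand: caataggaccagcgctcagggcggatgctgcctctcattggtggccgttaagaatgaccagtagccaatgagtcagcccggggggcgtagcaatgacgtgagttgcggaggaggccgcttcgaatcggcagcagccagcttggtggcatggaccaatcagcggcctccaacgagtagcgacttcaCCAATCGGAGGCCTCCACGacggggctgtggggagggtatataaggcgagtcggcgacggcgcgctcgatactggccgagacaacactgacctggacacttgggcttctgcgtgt
Creld2, chr15:88819396-88819695, plus strand: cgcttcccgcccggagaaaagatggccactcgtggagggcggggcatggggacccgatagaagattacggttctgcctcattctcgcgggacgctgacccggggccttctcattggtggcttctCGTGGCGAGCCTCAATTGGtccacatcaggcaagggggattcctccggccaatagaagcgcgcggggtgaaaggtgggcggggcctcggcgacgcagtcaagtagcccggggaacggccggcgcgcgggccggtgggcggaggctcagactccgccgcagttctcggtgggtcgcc
Calr, chr8:84846882-84847181, minus strand: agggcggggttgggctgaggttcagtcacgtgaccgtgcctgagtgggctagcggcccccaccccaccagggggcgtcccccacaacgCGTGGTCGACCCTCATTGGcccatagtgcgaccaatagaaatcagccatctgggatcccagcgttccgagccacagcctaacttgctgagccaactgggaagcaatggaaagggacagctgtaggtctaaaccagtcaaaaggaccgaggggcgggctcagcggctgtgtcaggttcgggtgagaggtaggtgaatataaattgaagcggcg

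Most ribosome biogenesis genes rose over the gene body, while few were called over introns. Of 71 measured genes, 53 were higher and 1 was lower over the gene body, whereas 4 of 67 were higher and 1 lower over introns in the authors' deposited table, and 48 were higher over the gene body alone. All measured genes had 14.3% higher over the gene body and 5.38% higher over introns, so the intronic count is near that of all genes. Their intronic median was nonetheless 0.56 (log2), beside 0.73 over the gene body, and 59.7% of them had an intronic log2 ratio of 0.5 or more, against 24.3% of all genes. Intronic coverage of the list was low, with a median of about 21.1 reads in untreated livers against 54.1 for the folding genes, and its part in the missing calls was not tested.

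Nop58, a core protein of box C/D small nucleolar particles, averaged 41.7 gene body FPKM at 240 min and 9.33 untreated, and rose 4.32-fold over the gene body and 4.12-fold over introns in the authors' deposited table. Nolc1, a chaperone of these particles, rose 3.39-fold and 3.85-fold. Tsr1, which matures the small subunit, rose 3.53-fold over the gene body (adjusted p = 2.01e-23 in the authors' deposited table), while its introns averaged 0.384 FPKM at 240 min and 0.264 untreated and were not called. Rcl1 was the exception, 1.43-fold lower over the gene body and 1.72-fold lower over introns in the authors' deposited table. Genes of the ribosome's own proteins were rarely called over the gene body, where all genes had 14.3% higher and 8.59% lower. Of 72 cytosolic ribosomal protein genes 0 were higher and 2 were lower (Rpl28 and Rpl37a) in the authors' deposited table. Nevertheless 68 of the 72 had a gene body log2 ratio below 0, with a median of -0.19 against 0.03 for all measured genes.

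The promoter of Nop2, a methyltransferase of the large subunit's RNA that rose 2.63-fold over the gene body, according to the authors' deposited table, is shown for its CACGTG, the E-box bound by MYC and related factors, in capitals. That motif was present in 13 of 60 biogenesis promoters (21.7%), in 10.8% of those of all genes measured on both and in 7.24% of all 27025. Shares varied between lists and a high one was not particular to biogenesis genes. The share was 33.3% for tRNA synthetases and 20.8% for gluconeogenesis, but 10.7% for folding genes. Promoters of Nop58 and Nolc1, which rose on both measures, held no match. Myc itself was not called, at 1.57 gene body FPKM untreated, 11.9 at 30 min, 9.88 at 90 min and 1.65 at 240 min.
Nop2, chr6:125131633-125131932, plus strand: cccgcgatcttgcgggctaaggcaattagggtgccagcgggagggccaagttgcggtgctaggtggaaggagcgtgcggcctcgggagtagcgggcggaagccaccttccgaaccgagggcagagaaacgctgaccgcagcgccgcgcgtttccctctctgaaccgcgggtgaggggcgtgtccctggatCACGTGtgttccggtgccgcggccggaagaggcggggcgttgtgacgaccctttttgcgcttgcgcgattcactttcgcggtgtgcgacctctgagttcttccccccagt

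**Figure D3:**
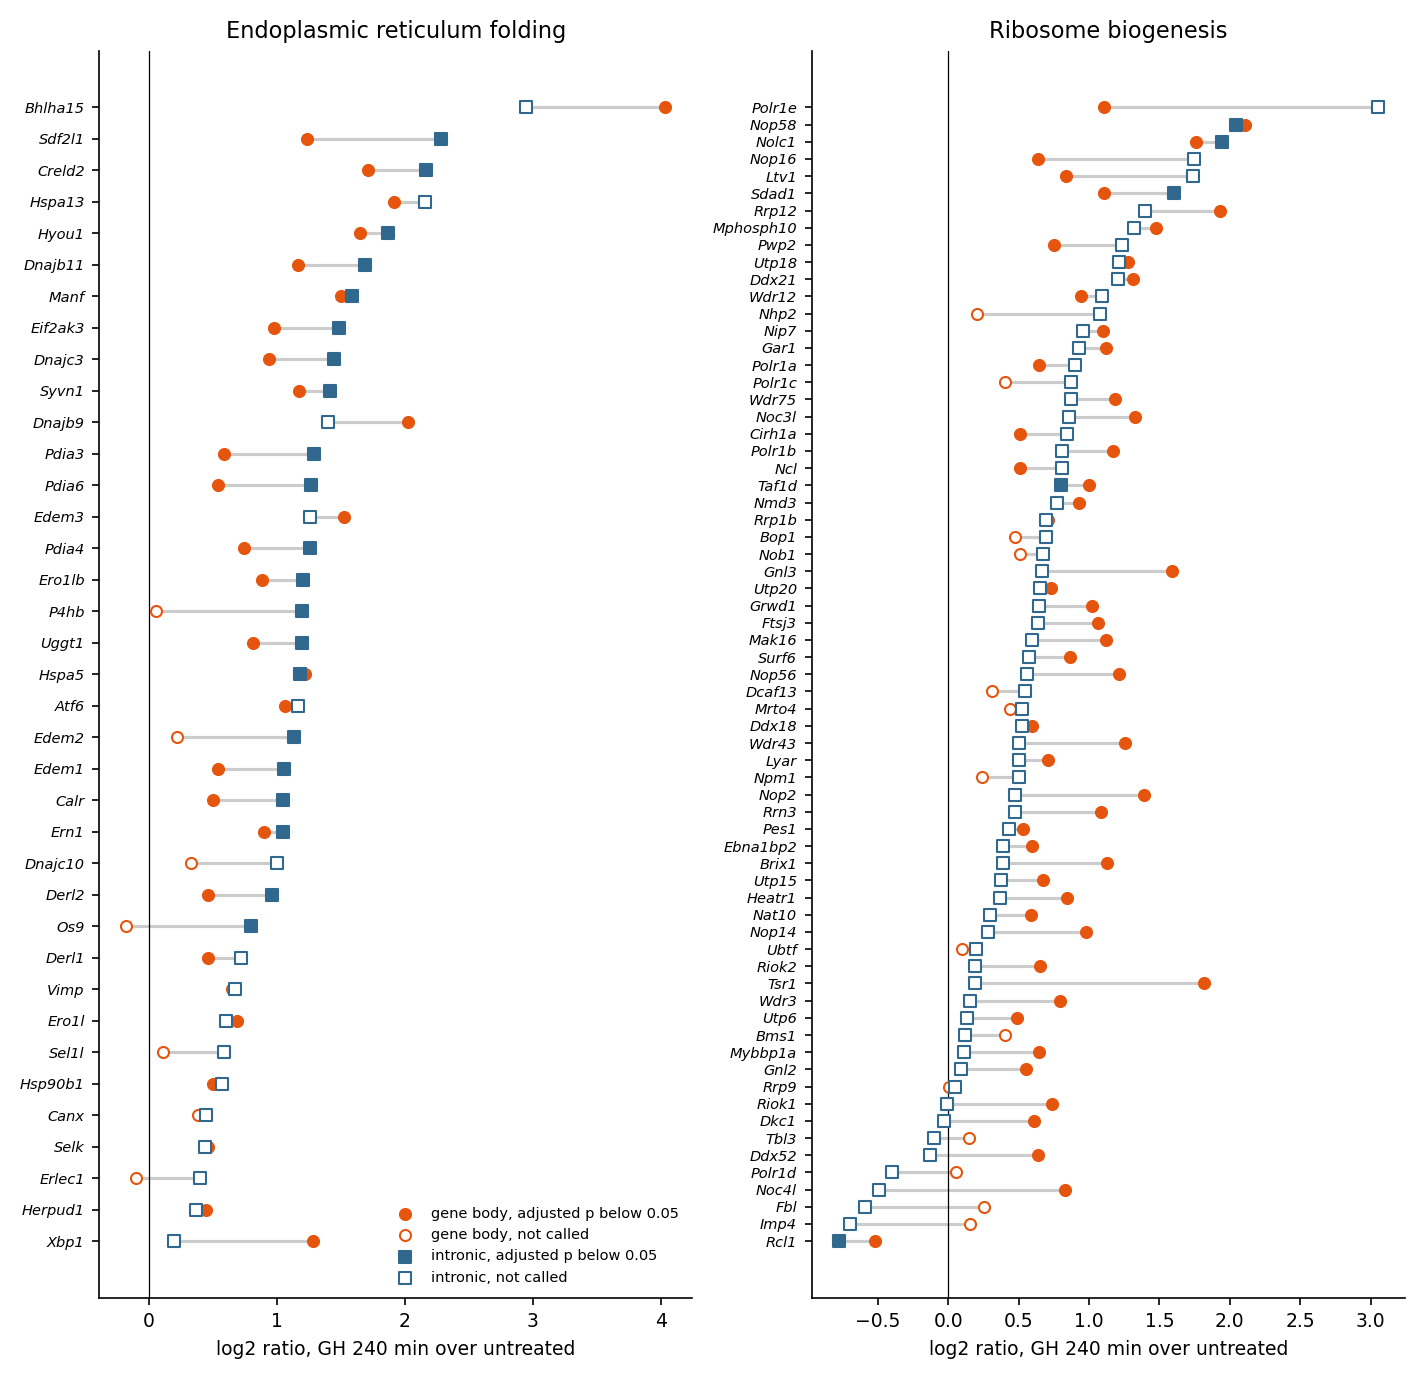
Log2 ratios (GH 240 min over untreated) of the members measured on both readouts, with circles for the gene body and squares for introns, filled where the adjusted p of the authors' deposited table was below 0.05. Filled squares are common on the left, at 21 of 37 folding genes, and rare on the right, at 5 of 67 biogenesis genes, although most open squares on the right also lie above 0.

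Genes that load tRNAs or fold proteins in the cytosol were also called higher over the gene body, where 14.3% of all genes were. Among cytosolic aminoacyl-tRNA synthetases, which load tRNAs, 14 of 20 were higher over the gene body and 5 over introns in the authors' deposited table. Nars and Tars were called on both, at 2.16-fold and 2.26-fold over the gene body and 2.79-fold and 2.56-fold over introns. Heat shock proteins and cytosolic chaperones had 13 of 28 higher over the gene body but 2 of 26 over introns, Chordc1 and Bag3, which is near the 5.38% of all genes. Hsp90aa1, an inducible chaperone, rose 2.41-fold over the gene body, according to the authors' deposited table, while its introns averaged 0.603 FPKM at 240 min and 0.599 untreated. Hspa8, the constitutive partner, rose 1.87-fold over the gene body, and its introns were not called despite about 266 reads at 240 min and 161 untreated.

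Acute-phase protein genes showed the widest gap between the measures. Of 28 measured members, 21 were lower and 1 was higher over introns in the authors' deposited table, beside 5.93% of all genes lower. Over the gene body 6 were higher and 5 lower, where all genes had 14.3% and 8.59%. Their median log2 ratio was -1.32 over introns and -0.02 over the gene body, according to the authors' deposited table. With quotients of the FPKM means in place of the authors' ratios the intronic median was -0.90 and that of the gene body 0.04, where all measured genes stood at 0.37 over introns. By class, 12 were lower in introns alone, 5 lower on both, 4 opposite, 1 higher on both (Il1r1), 1 higher over the gene body alone (Il6st) and 5 uncalled. Members of the list had deep intronic coverage, with a median of about 1077 reads in untreated livers. Among them are the cytokine receptor genes Il1r1, Il6ra, Il6st and Osmr, which do not encode acute-phase proteins.

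Saa1 (mm9 chr7:53995868-53998350), a serum amyloid that liver releases in inflammation, averaged 2.63 intronic FPKM at 240 min and 47.0 untreated, 25.0-fold lower in the authors' deposited table with an adjusted p of 1.2e-82. Its gene body averaged 949 FPKM at 240 min and 1210 untreated, which was not called (adjusted p = 0.219 in the authors' deposited table). Its near-identical neighbour Saa2 fell 31.0-fold over introns in the authors' deposited table, and reads could be shared between the pair. Hp, the hemoglobin scavenger haptoglobin, fell 6.09-fold over introns and 1.42-fold over the gene body. Lcn2, an iron-sequestering protein, fell 11.2-fold over introns and Lbp, which binds lipopolysaccharide, 7.96-fold in the authors' deposited table, both with no gene body call. Saa1, Lcn2 and Lbp are among the 12 members lower over introns alone, while Saa2 and Hp are among the 5 lower on both. This split depends on the threshold. At an adjusted p below 0.01 the list had 19 members lower over introns but 1 lower over the gene body.

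**Figure D4:**
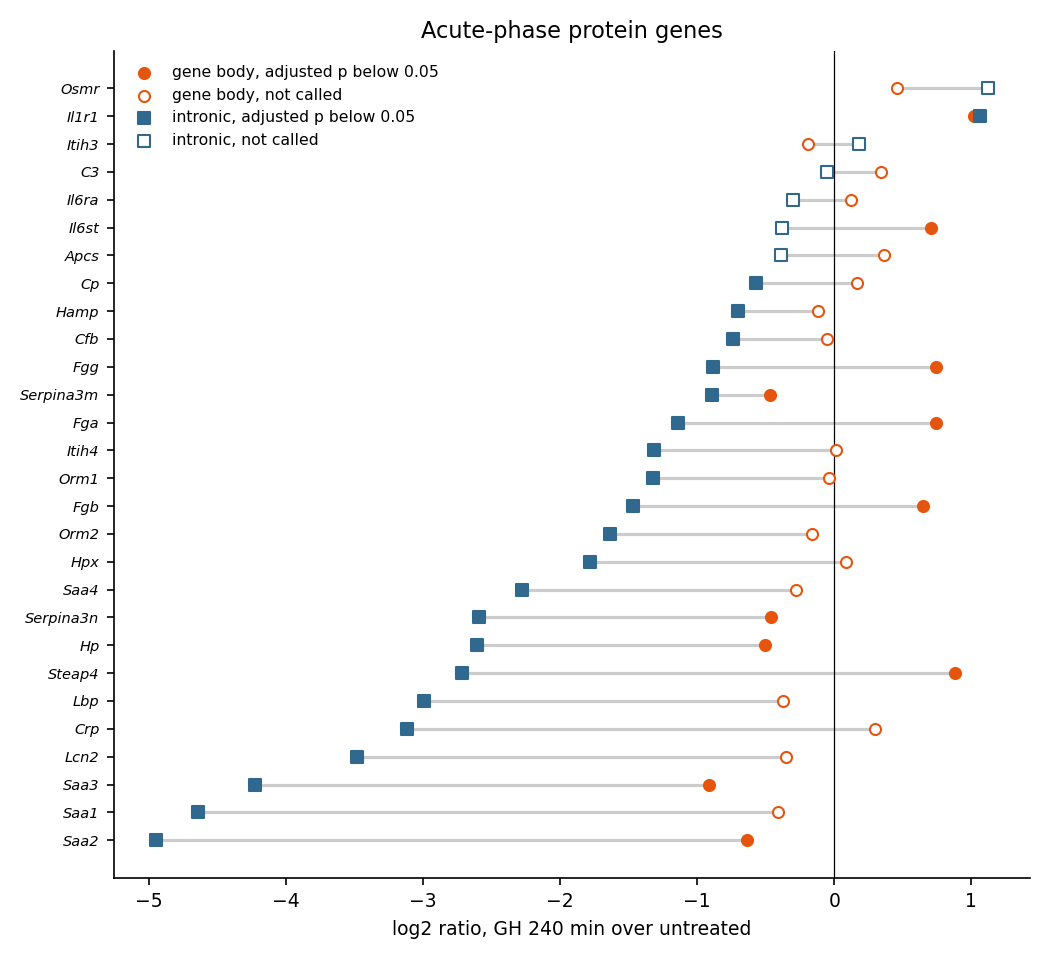
Log2 ratios (GH 240 min over untreated) of the 28 members of the acute-phase list, cytokine receptor genes included, with circles for the gene body and squares for introns, filled where the adjusted p of the authors' deposited table was below 0.05. Squares reach -4.95 for Saa2 while circles stay between -0.91 (Saa3) and 1.02 (Il1r1), and the intronic value of Saa3 at 240 min rests on about 1.41 reads.

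The fibrinogen genes, which encode the 3 chains of the clotting protein and lie side by side on chromosome 3, moved in opposite directions on the 2 measures. Fgb (mm9 chr3:82846226-82853712) averaged 6359 gene body FPKM at 240 min and 3914 untreated, 1.57-fold higher in the authors' deposited table with an adjusted p of 0.000408. Its introns averaged 20.9 FPKM at 240 min and 44.9 untreated, 2.77-fold lower in the authors' deposited table (adjusted p = 4.9e-14), on about 1546 and 2961 reads. Fga rose 1.68-fold over the gene body and fell 2.20-fold over introns, and Fgg rose 1.68-fold and fell 1.84-fold in the authors' deposited table. Steap4, a metalloreductase, rose 1.84-fold and fell 6.57-fold, and Lrg1, a secreted glycoprotein of the acute phase, rose 1.90-fold and fell 1.67-fold. Taken as FPKM means, all 5 were likewise lower over introns at 240 min than untreated.

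Ttr, the thyroid hormone carrier transthyretin, was the sixth gene with opposite calls and ran the other way. Its gene body averaged 4190 FPKM at 240 min and 6195 untreated, 1.53-fold lower in the authors' deposited table with an adjusted p of 0.00490. Its introns averaged 44.8 FPKM at 240 min and 20.2 untreated, 1.69-fold higher in the authors' deposited table (adjusted p = 8.23e-07). Of 34 measured secreted plasma proteins, 13 were lower and 2 (Apoa5 and Apob) higher over the gene body, and 6 were lower and 3 higher over introns in the authors' deposited table. Of all genes 8.59% were lower and 14.3% higher over the gene body, and 5.93% lower and 5.38% higher over introns.

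Promoters of Fga and Fgb are shown for their match to TTCNNNGAA, in capitals, which was present in 6 of the 23 members of the acute-phase list with a promoter in the RefSeq table (Apcs, Fga, Fgb, Hamp, Itih4 and Steap4), against 8.47% of all promoters. Among promoters of genes measured on both the share was 7.04%. It varied between lists, with 9 of 25 interferon-stimulated, 4 of 16 bile acid and 0 of 21 drug-metabolising P450 promoters, so it is not particular to acute-phase genes. The letters TTCNNNGAA also fit STAT3, the factor through which interleukin 6 is known to act on acute-phase genes.
Fga, chr3:83025903-83026202, plus strand: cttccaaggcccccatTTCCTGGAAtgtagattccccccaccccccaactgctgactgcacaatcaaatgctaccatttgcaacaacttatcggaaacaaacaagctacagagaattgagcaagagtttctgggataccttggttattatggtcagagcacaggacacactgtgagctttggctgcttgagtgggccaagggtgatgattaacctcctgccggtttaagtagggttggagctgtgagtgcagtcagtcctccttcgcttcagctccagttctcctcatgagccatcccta
Fgb, chr3:83049814-83050113, minus strand: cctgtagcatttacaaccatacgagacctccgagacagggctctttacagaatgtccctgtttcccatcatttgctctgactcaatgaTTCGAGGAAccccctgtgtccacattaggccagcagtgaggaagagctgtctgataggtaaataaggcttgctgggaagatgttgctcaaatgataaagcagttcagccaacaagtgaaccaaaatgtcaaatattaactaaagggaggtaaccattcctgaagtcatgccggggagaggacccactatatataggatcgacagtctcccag

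Many inflammatory and immediate-early genes fell, often on both measures. Of 29 measured targets of NF-kB and chemokines, 12 were lower over the gene body and 12 over introns in the authors' deposited table, 11 of them on both, and 0 were higher on either, beside 8.59% and 5.93% of all genes lower. Cxcl1, a chemokine for neutrophils, averaged 59.7 gene body FPKM at 240 min and 282 untreated, 4.96-fold lower over the gene body and 6.67-fold lower over introns in the authors' deposited table. Il1b, a cytokine of macrophages, fell 3.82-fold and 5.33-fold. Socs3, the inhibitor of interleukin 6 signalling, fell 4.99-fold over the gene body, according to the authors' deposited table (adjusted p = 3.73e-40), and its introns averaged 0.0635 FPKM at 240 min, about 0.929 reads, and 2.58 untreated.

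Of 34 measured immediate-early genes, 18 were lower and 2 higher over the gene body, and 8 of 27 were lower over introns in the authors' deposited table. Of all genes 8.59% were lower and 14.3% higher over the gene body, and 5.93% were lower over introns. Nr4a1, an inducible nuclear receptor, averaged 0.150 intronic FPKM at 240 min and 4.62 untreated, 41.6-fold lower, and its gene body was 6.02-fold lower in the authors' deposited table. Zfp36, which destabilises cytokine mRNAs, fell 3.90-fold over the gene body and 6.64-fold over introns. Junb, which has no intron signal in the table, fell 5.25-fold over the gene body. The metallothioneins Mt1 and Mt2, metal-binding proteins induced by stress and glucocorticoids, fell 46.8-fold and 34.6-fold over introns in the authors' deposited table, and Mt1 fell 1.76-fold over the gene body while Mt2 was not called there.

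Some markers of macrophages and neutrophils were lower in the same comparison. Over the gene body, 8.59% of all genes were lower and 14.3% were higher. Of 11 Kupffer cell and macrophage markers 5 were lower and 0 higher over the gene body, according to the authors' deposited table (Clec4f, Timd4, C1qa, C1qc and Csf1r), and the 11 summed to 188 FPKM at 240 min and 259 untreated. Of 4 measured neutrophil markers 2 were lower, S100a8 and S100a9, with a sum over the 4 of 19.5 FPKM at 240 min and 31.9 untreated, and Camp was listed at 0 in both groups. None of the 3 measured B cell markers or the 2 measured T and NK cell markers was called on either measure, and their sums were 4.73 and 2.12 FPKM at 240 min and 5.63 and 1.74 FPKM untreated. Endothelial markers had 0 of 7 called over the gene body, summing to 90.1 FPKM at 240 min and 97.5 untreated. The part of these cells in the lower inflammatory genes was not tested. Of 5 measured cholangiocyte markers 3 were higher, Krt7, Krt19 and Spp1, and none of the 3 was called over introns. Their median was about 0.808 intronic reads in untreated livers, too few for an intronic call to be informative.

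Some genes of glucose handling were lower. Of 31 measured genes of gluconeogenesis and the insulin response, 11 were lower and 3 higher over the gene body, and 7 of 30 were lower and 1 higher over introns in the authors' deposited table. The shares of all genes were 8.59% lower and 14.3% higher over the gene body, and 5.93% lower and 5.38% higher over introns. Igfbp1, an insulin-repressed binding protein of IGF1, averaged 11.6 gene body FPKM at 240 min and 45.4 untreated, 4.02-fold lower, and its introns were 19.7-fold lower in the authors' deposited table. Pck1, which makes phosphoenolpyruvate, fell 1.70-fold over the gene body and 3.36-fold over introns, and Tat, which breaks down tyrosine, fell 2.06-fold and 2.68-fold. G6pc, the phosphatase that releases glucose, rose 1.44-fold over the gene body (adjusted p = 0.00816 in the authors' deposited table) and was not called over introns.

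Several cytochrome P450 genes of drug metabolism were lower over introns. Of 22 measured, 5 were lower and 2 higher over the gene body, where all genes had 8.59% and 14.3%, and 9 of 21 were lower and 1 higher over introns, where all genes had 5.93% and 5.38%. The difference between the measures was not tested. Cyp3a11 averaged 2166 gene body FPKM at 240 min and 2164 untreated, while its introns averaged 1.17 FPKM at 240 min and 4.35 untreated, 4.79-fold lower in the authors' deposited table with an adjusted p of 4.67e-38. Cyp2c29 likewise was 2.41-fold lower over introns alone. Cyp2c70, which hydroxylates bile acids in mice, was the exception and rose 2.28-fold over the gene body and 3.43-fold over introns. These families hold close paralogs that may share reads.

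Sterol genes rose in part. Of 27 measured genes of cholesterol synthesis, 9 were higher and 1 lower over the gene body, and 6 were higher over introns in the authors' deposited table, beside 14.3%, 8.59% and 5.38% of all genes. Aacs, which activates acetoacetate for lipid synthesis, averaged 77.1 gene body FPKM at 240 min and 7.84 untreated, 9.38-fold higher, and its introns were 9.30-fold higher in the authors' deposited table. Sqle, squalene epoxidase, rose 2.23-fold over the gene body and 2.94-fold over introns. Slc10a1, the bile acid uptake carrier, rose 2.08-fold over the gene body and 3.46-fold over introns in the authors' deposited table. It had the highest intronic ratio of the bile acid list, which did not rise as a whole. Of 19 measured members of that list 2 were higher and 3 lower over the gene body. Over introns 2 of 18 were higher and 5 lower, where all genes had 5.38% and 5.93%.

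Genes known for sex bias in intact liver moved in both directions. Of 29 measured male-biased genes 7 were higher and 14 lower over the gene body, and of 29 female-biased genes 9 were higher and 6 lower by the authors' deposited table, where all genes had 14.3% higher and 8.59% lower. Over introns 5 of 27 male-biased genes were higher and 4 lower, and 5 of 23 female-biased genes were higher and 6 lower, where all genes had 5.38% and 5.93%. Ces2b, a carboxylesterase, averaged 17.5 gene body FPKM at 240 min and 0.0709 untreated, with an adjusted p of 7.36e-67 in the authors' deposited table. Ugt2b38, a glucuronosyltransferase, averaged 8.22 FPKM at 240 min and 0.243 untreated, 33.2-fold higher over the gene body. Elovl3, a fatty acid elongase, averaged 0.240 FPKM at 240 min and 6.50 untreated, 24.6-fold lower over the gene body. Mup3, a major urinary protein, fell 2.01-fold over the gene body and 2.37-fold over introns, within a family of near-identical copies whose reads may be shared.

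Means at 30 and 90 min show how each gene stood before 240 min. The earlier times share the same untreated pools, so their values are given side by side only. Intronic FPKM of Igf1 was 0.0638 untreated, 0.279 at 30 min, 0.517 at 90 min and 0.390 at 240 min, while its gene body FPKM was 12.8, 26.5, 36.9 and 72.2. Nop58 had its peak intronic mean at 90 min, at 0.443 FPKM, and its peak gene body mean at 240 min. Intronic FPKM of Fgb was 44.9 untreated, 85.9 at 30 min, 107 at 90 min and 20.9 at 240 min. Intronic FPKM of Saa1 was 47.0 untreated, 30.5 at 30 min, 49.9 at 90 min and 2.63 at 240 min. The gene body mean of Saa1 over untreated was -0.90 (log2) at 30 min, -0.73 at 90 min and -0.35 at 240 min. Nr4a1 and Igfbp1 had already reached 0.141 and 0.0789 intronic FPKM at 30 min. Hspa5 averaged 215 gene body FPKM untreated, 226 at 30 min, 238 at 90 min and 522 at 240 min. The low intronic means of Fgb and Cxcl1 and the high gene body mean of Hspa5 were thus seen at 240 min and not at the 2 earlier times. The intronic mean of Saa1 was lowest at 240 min but was also below untreated at 30 min. Intronic means of Nr4a1 and Igfbp1 were low at 30 min and at 240 min.

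**Figure D5:**
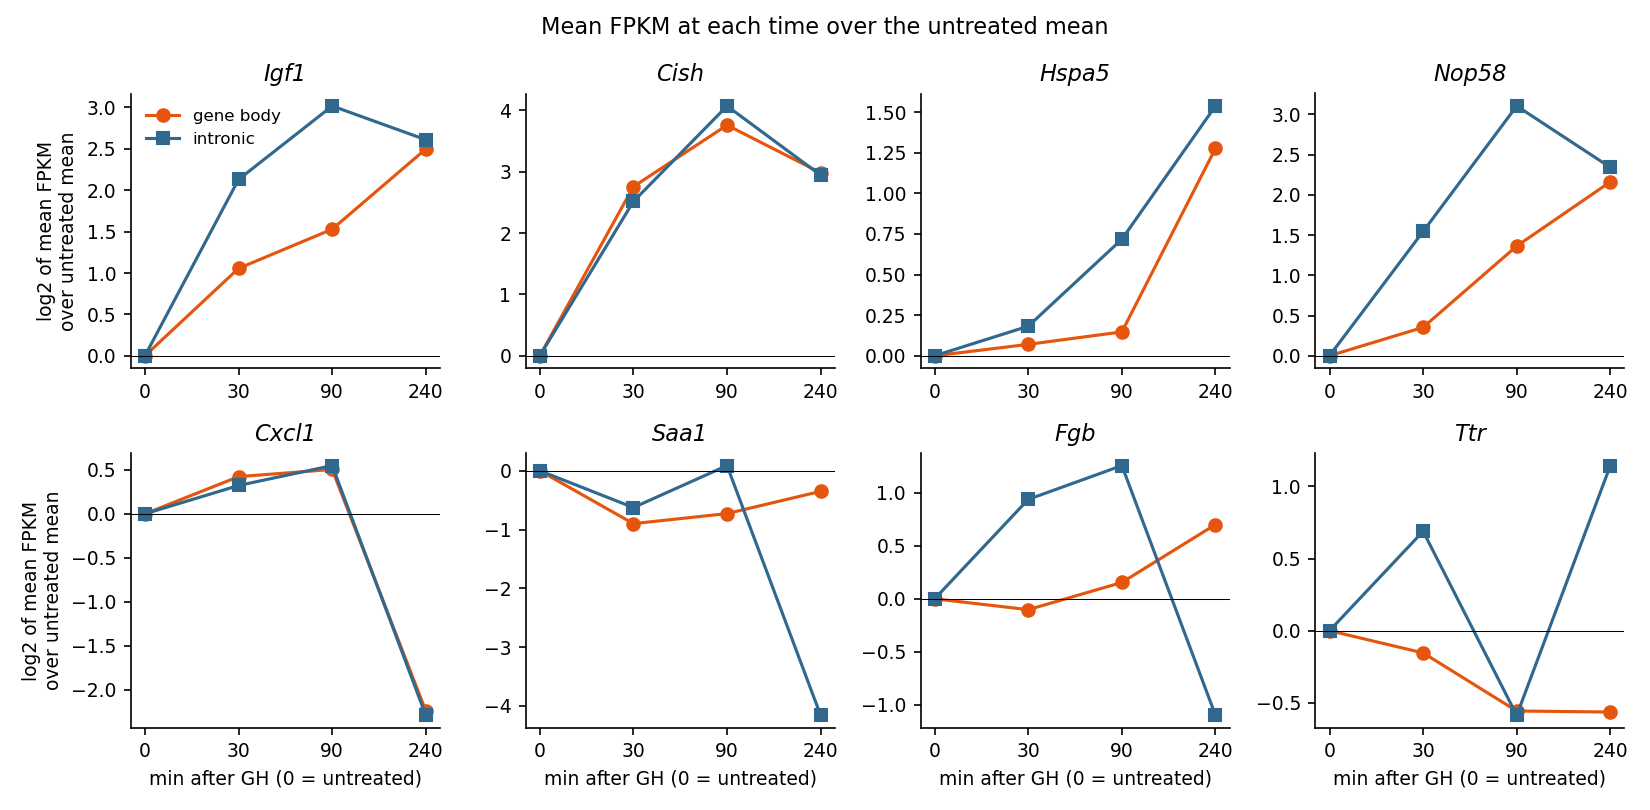
Log2 of the authors' mean FPKM at 0 (untreated), 30, 90 and 240 min over the untreated mean for 8 genes, with circles for the gene body and squares for introns, without error bars because no single-pool values are given. Intronic means of Igf1 and Nop58 are highest at 90 min, and that of Ttr is highest at 240 min. Those of Cxcl1 and Fgb are below the untreated mean only at 240 min. The intronic mean of Saa1 is below untreated at 30 min (-0.63) and far lower at 240 min (-4.16).

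The leading members of the single-measure classes were of varied function. Among genes higher over the gene body alone with introns not leaning the same way were Ifi47, an interferon-inducible GTPase, Tsr1, Krt19, Abhd5, Il13ra1, Zfp931, Ankrd9, Slc10a2, Zfp719 and Pde12, with Ifi47 at 63.5 gene body FPKM at 240 min and 12.7 untreated. Those lower over the gene body alone included Klrd1, at 0.220 FPKM at 240 min and 1.09 untreated, Extl1, Slc22a7, Dyrk1b, and Fgfrl1, at 4.70 FPKM at 240 min and 12.7 untreated. Intronic reads at 240 min, where they could be estimated, ran from about 1.40 (Ankrd9) to 60.7 (Tsr1) for the named higher genes. For the named lower genes they ran from about 1.43 (Slc22a7) to 28.1 (Fgfrl1). Krt19 had about 2.27 at 240 min and 1.62 untreated. With so few reads, a missing intronic call does not show that the introns were unchanged. Among genes higher over introns alone were Mrpl50, Alg3, Pgrmc2, Ces2g, Ethe1 and Mettl9, and Mettl9 had about 252 intronic reads at 240 min and 52.0 untreated with a 3.18-fold rise over introns in the authors' deposited table. Besides acute-phase genes, those lower over introns alone included Ren1 and Ren2, near-identical renin genes that may share reads, Il1rn, Sult2a6 and Nnmt.

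The classes differed in level and structure as well. Genes lower over introns alone had a median of 38.8 gene body FPKM at 240 min and 41.5 untreated, against 7.80 and 6.96 for all genes measured on both. Genes lower on both had untreated introns at 2.39% of their gene body FPKM, the median gene at 1.37% and genes higher on both at 1.11%. The untreated intronic value also enters the ratio that sets these classes, so this order is partly built in and is not read as a trait of them. Transcripts matched by accession or symbol in GENCODE M21 had a median length of 3587 nt in the class higher on both and 2421 nt in the class lower on both, against 2850 nt for all. Median GC content was 45.6% for genes higher over the gene body alone and 55.1% for those lower over the gene body alone, against 50.3% for all. Removing a fitted trend with length and GC left the direction of every call with these properties as it was.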

How the data were processed

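Liver RNA was poly-A selected and sequenced from strand-specific libraries, per the labels' protocols. The tools TopHat2, featureCounts and edgeR and the build mm9 are listed, with no version or setting, per the submitters' processing notes. The authors deposited mean FPKM per group for gene bodies and for introns, a normalized ratio of treated over untreated, and an adjusted p-value, per the file headers. Which filters preceded these values and how p was adjusted are not stated in these sources. No value of a single pool was available, so no count test was run, and the authors' deposited calls (adjusted p below 0.05) are described, and 2 pools measure the spread between pools, not mice. Low gene body values in genes with 1 exon were whole multiples of single reads (within 0.001 of the value) for 100% of 381 at 240 min and 99.0% of 383 untreated, which gave the library totals. Approximate intronic reads follow from FPKM, these totals and the gene span less the transcript length.

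The members and lists were chosen with earlier results of these data known. The named-gene rule took, per class and direction, the 10 largest changes with a given name (by the smaller absolute log2 ratio where both measures were called, with at least 0.1 intronic FPKM where introns were called, and in single-measure classes only where the other ratio was within 0.5 of 0 or of the other sign), a set of GH and liver genes, and per list up to 4 called members with the smallest adjusted p. Rcl1, Nop2, P4hb, Ssr3, Calr, Pdia6, Bag3, Apob, C1qa, Il1r1, Il6st, Saa3 and further members of classes and motif sets were named after their values were seen. A few genes the rule names are not reported here. Of the 10084 genes, 10011 were matched by accession and 57 by symbol to GENCODE M21 for length, GC content and exons, as properties only since its build differs, and 7742 by symbol to RefSeq promoters, of which the first listed per gene was used. The removal of the length and GC trend was tested on simulated data. Python 3.11.15, pandas 2.3.3, statsmodels 0.14.6 and matplotlib 3.10.9 were used.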

Additional observations from a re-analysis of the deposited data

How the results depend on the processing

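No paired analysis was possible because only group means were given, and for the same reason leaving out each pool and the replicate block were not run. Requiring an adjusted p below 0.01 gave 609 genes lower over the gene body, 334 higher over introns, 228 higher and 176 lower on both, 392 lower over the gene body alone and 105 higher over introns alone. Requiring at least 2-fold gave 424 higher and 249 lower over the gene body, 379 lower over introns, 149 higher and 88 lower on both, 0 opposite, 248 higher and 130 lower over the gene body alone and 257 higher over introns alone. At least 0.1 intronic and 5 gene body FPKM gave 587 higher and 301 lower over the gene body alone. The other counts of calls and classes were within 1.5 times of those reported under these settings, and all were with no filter, with either quotient of means and after removal of the trend with length and GC. The quotient and trend settings kept the authors' adjusted p, which was not recomputed. Under them a count could change only where a ratio changed sign or a gene had no matched length, so they test direction alone. All 2528 gene body calls and 1141 intronic calls kept their direction with quotients of means. Intronic medians of several lists depend on the scaling, among them gluconeogenesis, plasma proteins, circadian genes and male-biased genes, which are below 0 with the authors' ratio and above 0 with quotients. Among list counts, 33 moved by more than 1.5 times with an adjusted p below 0.01 and 8 with the stricter filter, while 99 and 124 did not. With an adjusted p below 0.01, acute-phase genes lower over the gene body went from 5 to 1. Synthetases higher over the gene body went from 14 to 7, and plasma proteins lower over introns from 6 to 1. A tolerance of 0.25 in place of 0.5 left 240 genes higher and 122 lower over the gene body alone, and 77 higher and 128 lower over introns alone, with the other measure near 0. Low intronic depth limits which gene body calls can be matched.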

Other observations

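Of 19 circadian clock genes measured on both readouts, 4 were lower on both. Dbp, a transcription factor with a strong daily rhythm in liver, averaged 69.6 gene body FPKM at 240 min and 123 untreated, and log2 ratios in the authors' deposited table were -0.87 over the gene body and -0.92 over introns. Nr1d1 (REV-ERB alpha), Per3 and Tef were the other members lower on both, Hlf was lower over the gene body alone, and Cry1 was higher on both. Of 20 measured clock genes, 5 were lower and 2 higher over the gene body, and 6 of 19 were lower and 1 higher over introns in the authors' deposited table. All genes had 8.59% lower and 14.3% higher over the gene body, and 5.93% lower and 5.38% higher over introns.

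Of 26 measured genes of polyamine and nucleotide synthesis, 8 were higher and 0 lower over the gene body by the authors' deposited table, beside 14.3% and 8.59% of all genes, and the median log2 ratio of the list there was 0.21. Odc1, the rate-limiting enzyme of polyamine synthesis, averaged 59.4 gene body FPKM at 240 min and 24.4 untreated. Cad, which starts pyrimidine synthesis, was called higher on both measures. Interferon-stimulated genes had 4 of 28 higher and 2 lower over the gene body, near the shares of all genes, and 0 of 25 higher and 4 lower over introns by the authors' deposited table, where all genes had 5.38% and 5.93%. Irf1, a transcription factor induced by interferon, had a log2 ratio of -1.68 over the gene body and -1.91 over introns in the authors' deposited table. The GTPases Igtp, Irgm1, Iigp1 and Gbp7 were higher over the gene body alone, and Igtp averaged 47.9 FPKM at 240 min and 26.4 untreated.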
